A study of Mus musculus with 9 samples.

Results

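Chemokines and chemokine receptors were followed in mouse hearts by RNA sequencing of single nuclei (sNuc-seq). Here a barcode marks the nucleus and a unique molecular identifier (UMI) marks every transcript captured. The members were every gene of the tables named Ccl, Cxcl, Ccr or Cxcr with a number, plus Cx3cl1, Cx3cr1, Xcl1, Xcr1 and Ackr1 to Ackr4. The rule found 56 of 23747 genes, of which 34 were ligands, 18 signalling receptors and 4 atypical receptors. All mice were C57BL/6 of 8 weeks and received gavage for 7 days before surgery. The 3 sham samples received vehicle and an operation without ligation. The 3 I/R samples received vehicle, then 30 min of ligation of the left anterior descending coronary artery and 24 h of reperfusion. The 3 SBP samples received Shexiang Baoxin Pill, labelled MUSKARDIA, before the same ligation and reperfusion. The 9 libraries are labelled as replicates 1 to 3 of each group, and per the study's text each came from a different animal. The study took its tissue from below the site of the ligature, so that a whole heart stands here for all nuclei of that tissue and not for the entire organ. Reperfusion was sampled at 24 h only.

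Chemokines are small secreted proteins that form gradients and steer leukocytes by binding G protein-coupled receptors on their surface. CC and CXC families are named for the spacing of their first cysteines, and many ligands bind several receptors. Ligands of Cxcr2 draw neutrophils, ligands of Ccr2 draw monocytes, Cxcl12 retains and recruits cells through Cxcr4, and atypical receptors take up chemokines without G protein signalling. In the injured heart these genes are known for bringing neutrophils first and monocytes later into the infarct.

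The libraries held 49171 nuclei in all, 4576 to 6418 each, and 10329520 to 18205985 UMIs. Members took 81477 UMIs, 0.0602% of the total, with 3643 to 16147 UMIs in a library. Nuclei were grouped by clusters made without the members and named from marker lists, and the defining markers of cardiomyocytes, endothelial cells, fibroblasts and myeloid cells were present in their types. The myeloid type held 9591 nuclei, and its make-up differed between groups. Hpgd-led myeloid nuclei made up 67.0 to 84.9% of it in sham hearts and 0.923 to 12.2% in the injured hearts, where Gpnmb macrophages, Lyve1 macrophages and Vcan monocyte-like nuclei held most of it. All 8 cardiomyocyte markers were higher in Hpgd-led nuclei than in the other myeloid nuclei, by a median of 2.5-fold. The part of RNA from other cells in this grouping was not tested. A barcode sequence occurred in more than 1 library for 290 of 48881 sequences.

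Members were not spread evenly over the cell types, and most had 1 main source. These levels are UMIs per 1e6 UMIs of a cell type (CPM), pooled over the 9 libraries, and are compared within a gene and without a test, because UMIs are not scaled to transcript length. Myeloid nuclei held 82.2% of the UMIs of Ccl12, 80.1% of those of Ccr2, 75.8% of those of Ccr1 and of Cxcl2, and 70.4% of those of Ccl6. Fibroblasts held 80.8% of the UMIs of Cxcl1, 80.3% of those of Ccl19, 78.4% of those of Ccl11, 78.1% of those of Cxcl5 and 69.2% of those of Cxcl14. The monocyte-attracting ligands Ccl2 and Ccl7 had 2 sources, with 47.8 and 47.45% of their UMIs in myeloid nuclei and 34.6 and 38.4% in fibroblasts. Endothelial nuclei held 65.8% of the UMIs of Ccl21a and 50.7% of those of Cxcl12. T cells carried Cxcr6 at 147.5 CPM and Ccl5 at 180 CPM, and B cells carried Cxcr5 at 183 CPM, as is known for these lymphocytes.

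**Figure D1:**
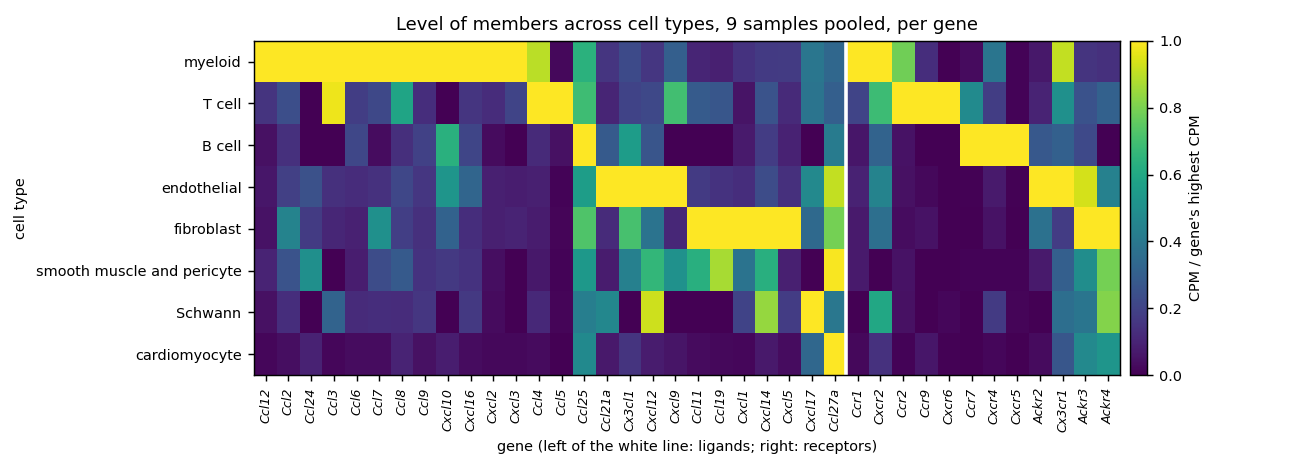
Level of the chemokine and receptor genes shown here, each with at least 100 UMIs, in 8 cell types, as CPM pooled over the 9 samples and divided by the gene's highest CPM, so that 1 marks the type with the highest level. Most inflammatory ligands peak in myeloid nuclei, while Cxcl1, Cxcl5, Cxcl14, Ccl11 and Ccl19 peak in fibroblasts and Cxcl12 and Ccl21a in endothelial nuclei.

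Smaller populations narrowed several sources further. Neutrophil-like nuclei, of which there were 200, carried Cxcr2, the neutrophil receptor of the CXC ligands, at 363 CPM and Ccr1 at 290 CPM. Vcan monocyte-like nuclei carried Cxcl2 at 387 CPM, Cxcl3 at 119.5 CPM and Ccr2 at 498 CPM. These levels are pooled, so that a single mouse need not show them together, and I/R mouse 2 held 764 of the 1494 nuclei. The highest library held 1684 of all 2445 UMIs of Cxcl2 and 436 of all 633 UMIs of Cxcl3. In Tnc injury-activated fibroblasts, Cxcl5 was at 202.5 CPM and Cxcl1 at 146 CPM, against 10.2 and 56.0 CPM in the other fibroblasts. Lymphatic endothelial nuclei held 1182 of the 2262 UMIs of Ccl21a, the ligand that guides dendritic cells through Ccr7, at 604.5 CPM. A cluster of 30 dendritic-like nuclei, led by Cacnb3 and with Ccr7 among its top genes, carried Ccr7 at 532 CPM, Cxcl16 at 469 CPM and Ccl5 at 188 CPM. These levels rest on few nuclei, with 12 and 7 in I/R mice 1 and 2 and 0 in sham mouse 3 and I/R mouse 3. Clec9a dendritic-like nuclei held 49 of the 70 UMIs of Xcr1, a receptor known for cross-presenting dendritic cells. Ccr2 reached 846 CPM in Klrd1 dendritic-like nuclei. In 121 fibroblast nuclei led by Rsad2 and Ifit1, both interferon-induced genes, Cxcl10 was at 97.7 CPM.

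Injury was examined by comparing I/R with sham hearts, first over all nuclei of each sample (whole hearts) and then within the 4 largest cell types. UMIs were summed per library and tested as log2(CPM + 1) with limma, where CPM was scaled between libraries by the trimmed mean of M values, and a gene was called at an adjusted p of 0.05 or less and a log2 fold change beyond 0.25. Values of members in each mouse are in scaled CPM, while their pooled levels, ranges over libraries and means in populations are in CPM without this scaling. In whole hearts, 10 of 43 tested members were called, 9 higher and 1 lower, where 11.3% of all genes tested were called. Myeloid nuclei had 10 of 23 called, 9 higher and 1 lower, against 17.6% of all genes. Fibroblasts had 8 of 28 called, 7 higher and 1 lower, against 11.3% of all genes. Endothelial nuclei had 6 of 23 called and cardiomyocytes 5 of 20, all of them higher, against 3.12 and 0.785% of all genes. The median log2 fold change of the tested members was 0.31 in whole hearts and 0.90 in myeloid nuclei, where the medians of all genes tested were -0.03 and 0.09 (log2 scale). Genes entered a sum if 3 samples reached a cut on low genes, which a single group could meet. Cxcl3 and Cxcr2 entered the myeloid sum through injured hearts only, their sham values being below its cut of 7.06 CPM. The medians and counts include such members. Over whole hearts, more cells of a type and more RNA per cell cannot be told apart, and myeloid nuclei were 8.55 to 14.5% of nuclei in sham hearts and 18.3 to 36.0% in I/R hearts. The whole-heart count was 6 without sham mouse 1 and 5 without sham mouse 3, the myeloid count was 4 without I/R mouse 2, and the cardiomyocyte count was 1 without sham mouse 1, sham mouse 3 or I/R mouse 2 and 2 without sham mouse 2.

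**Figure D2:**
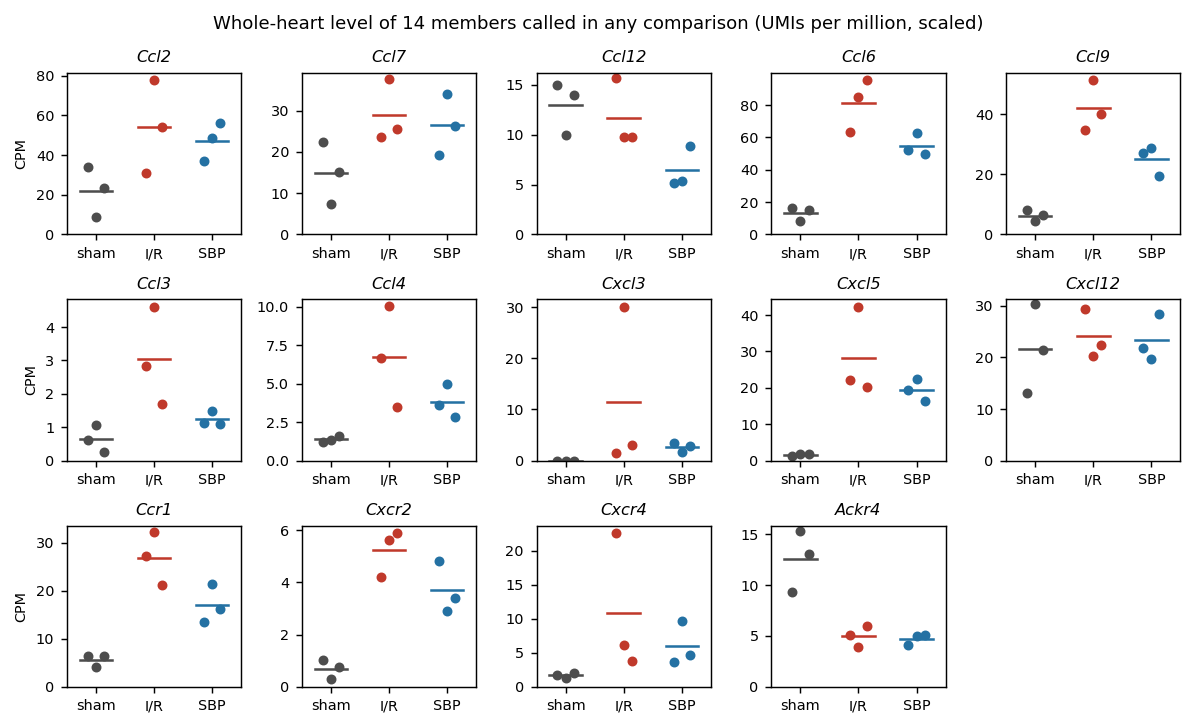
Whole-heart CPM of 14 members called in any comparison, with 1 point per mouse and a line at the mean of the 3 mice of each group. Ccl6, Ccl9, Cxcl5, Ccr1 and Cxcr2 are higher in every injured heart than in every sham heart, Ackr4 is lower, and the SBP points of Ccl6 and Ccl9 lie between the other groups. No member was called in SBP against I/R hearts.

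Among the neutrophil-attracting CXC ligands, Cxcl5 and Cxcl3 rose after I/R, and their receptor gene Cxcr2 rose with them. The genes Cxcl5, Cxcl3, Cxcl1 and Cxcl2 stand in one cluster on chromosome 5 (GRCm38, Cxcl5 at chr5:90759360-90761624 and Cxcl2 at chr5:90903871-90905938, both on the plus strand), and their upstream sequences are shown because 3 of them share an identical run of letters. The stretches are RefSeq sequence of GRCm38.p6 from 250 to 51 bases before the start, 5′ to 3′ on the gene's strand, and Cxcl10, an interferon-induced ligand, is given for contrast. Capitals mark matches to the NF-kB consensus on either strand or to the interferon-stimulated response element TTTCNNTTTC on either strand.
Cxcl1, chr5:90890995-90891194, plus strand: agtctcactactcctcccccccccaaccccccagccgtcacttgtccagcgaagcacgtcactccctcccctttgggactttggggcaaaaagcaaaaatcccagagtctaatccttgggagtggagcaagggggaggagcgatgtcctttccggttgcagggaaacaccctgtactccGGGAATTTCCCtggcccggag
Cxcl2, chr5:90903649-90903848, plus strand: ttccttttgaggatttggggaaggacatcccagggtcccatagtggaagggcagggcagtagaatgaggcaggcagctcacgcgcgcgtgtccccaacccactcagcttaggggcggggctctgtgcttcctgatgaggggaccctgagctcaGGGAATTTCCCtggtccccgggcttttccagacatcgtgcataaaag
Cxcl3, chr5:90785851-90786050, plus strand: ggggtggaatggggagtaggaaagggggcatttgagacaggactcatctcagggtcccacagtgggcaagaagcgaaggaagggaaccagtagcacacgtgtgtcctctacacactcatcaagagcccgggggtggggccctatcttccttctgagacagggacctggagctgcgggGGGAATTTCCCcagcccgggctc
Cxcl10, chr5:92348940-92349139, minus strand: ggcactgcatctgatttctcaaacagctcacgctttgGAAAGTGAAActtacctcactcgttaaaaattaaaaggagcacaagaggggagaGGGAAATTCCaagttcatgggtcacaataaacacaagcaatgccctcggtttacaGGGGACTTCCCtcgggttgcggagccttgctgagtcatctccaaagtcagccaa
The run GGGAATTTCCC occurred at 71 to 61 bases before the start of Cxcl1, 97 to 87 before Cxcl2 and 73 to 63 before Cxcl3. Cxcl10 had the interferon element 213 to 204 bases before its start and NF-kB matches at 159 to 150 and 104 to 94. Of 32851 windows of 250 bases before a RefSeq start, 7.25% held an NF-kB match and 2.98% the interferon element, and among the 42 members with a window 11 and 3 did. Windows for Cxcl5, Ccl2 and Ccl7 were not used here. A match describes letters only.

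In fibroblasts, the type with the highest level, Cxcl5 was at 3.6, 8.62 and 8.40 CPM in sham mice 1 to 3, at 74.5, 128 and 67.0 CPM in I/R mice and at 56.9, 77.6 and 51.6 CPM in SBP mice. Every injured heart lay far above every sham heart, and I/R and SBP hearts overlapped. The log2 fold change of I/R over sham was 3.55 ± 0.32 (SE, n = 3 against 3, limma adjusted p = 0.000135), which stayed between 3.23 and 3.75 with each library left out. Tnc injury-activated fibroblasts were 0.136 to 0.254% of fibroblasts in sham hearts and 10.3 to 33.5% in I/R hearts, and they held 67.7% of all Cxcl5 UMIs. In the other fibroblasts Cxcl5 had a mean of 6.20 ± 2.57 CPM (SD, n = 3) in sham and 13.4 ± 2.64 CPM (SD, n = 3) in I/R hearts.

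Cxcl3, a close relative of Cxcl1 and Cxcl2, had no UMI in any sham library. In myeloid nuclei it was at 4.12, 117 and 19.2 CPM in I/R mice and at 20.8, 7.23 and 23.3 CPM in SBP mice. Its mean in I/R myeloid nuclei was at least 49.9-fold and in SBP myeloid nuclei at least 18.3-fold that of sham, taking 3 UMIs over the 3 sham libraries as the floor, which covers counting error only. The I/R value rested on I/R mouse 2, and without it the mean was at least 12.45-fold that of sham. The fitted log2 difference was 4.52 ± 0.94 (SE, n = 3 against 3, limma adjusted p = 0.0101). It was 3.36 without I/R mouse 2 and 5.61 without I/R mouse 1, and with a pseudocount of 5 CPM the adjusted p was 0.0603.

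Cxcr2 in myeloid nuclei was at 1.60, 0 and 0.713 CPM in sham mice, at 7.83, 14.2 and 20.5 CPM in I/R mice and at 8.02, 5.42 and 9.88 CPM in SBP mice. All injured hearts stood above all sham hearts. I/R was higher than sham by 3.11 ± 0.49 on the log2 scale (SE, n = 3 against 3, limma adjusted p = 0.00137). The call held in all 16 alternatives in which Cxcr2 was tested, of the 18 run on myeloid nuclei. Its sham values lay below the cut of 7.06 CPM, so that Cxcr2 entered this sum through injured hearts only. Myeloid nuclei held 37.3% of the UMIs of Cxcr2. Neutrophil-like nuclei were at most 0.125% of myeloid nuclei in sham hearts and 1.04 to 5.82% in I/R hearts. The 6 neutrophil markers summed to 92.6 to 123 CPM in sham and 396 to 997 CPM in I/R myeloid nuclei, with 4 of 5 tested markers higher. When myeloid sums were restricted to macrophage populations, Cxcr2 no longer passed the filter on low genes, so that the rise is given for myeloid nuclei as a whole.

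Cxcl2 and Cxcl1 were not called, and both varied widely between mice. In myeloid nuclei Cxcl2 was at 1.60, 11.1 and 5.70 CPM in sham mice, 11.6, 457 and 34.5 CPM in I/R mice and 199, 25.9 and 48.0 CPM in SBP mice. I/R mouse 2 was far above the other I/R mice, and every sham mouse was below every injured mouse. The log2 difference of I/R from sham was 3.31 ± 1.31 (SE, n = 3 against 3, limma adjusted p = 0.121). Cxcl1 in fibroblasts was at 46.8, 25.2 and 83.3 CPM in sham mice, 24.8, 143 and 81.7 CPM in I/R mice and 137, 59.4 and 94.3 CPM in SBP mice, with overlap of the 3 groups (limma adjusted p = 0.682 for I/R against sham).

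Of the monocyte-attracting CC ligands, Ccl2 and Ccl7 rose in myeloid nuclei and Ccl12 fell. These genes and Ccl8 and Ccl11 lie together on chromosome 11 (GRCm38, from Ccl2 at chr11:82035571-82037453 to Ccl8 at chr11:82115185-82116799), and Ccl2, Ccl7 and Ccl12 are known ligands of Ccr2. Ccl2 in myeloid nuclei was at 49.5, 18.7 and 45.6 CPM in sham mice, 83.1, 175 and 258 CPM in I/R mice and 143, 159 and 262 CPM in SBP mice. No injured heart overlapped with a sham heart. Ccl2 rose by 2.12 ± 0.47 on the log2 scale in I/R over sham hearts (SE, n = 3 against 3, limma adjusted p = 0.0159) and by 2.34 ± 0.47 in SBP over sham hearts (limma adjusted p = 0.0136). The SBP call was lost without SBP mouse 2 (adjusted p = 0.0517) or SBP mouse 3 (adjusted p = 0.0593).

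Ccl7 followed the same order of groups in myeloid nuclei, at 44.7, 20.4 and 24.2 CPM in sham mice, 59.6, 78.9 and 124 CPM in I/R mice and 77.8, 115 and 116 CPM in SBP mice. Sham mice were below all others. Ccl7 rose by 1.54 ± 0.32 on the log2 scale in I/R (SE, n = 3 against 3, limma adjusted p = 0.00816) and by 1.81 ± 0.32 in SBP over sham hearts (limma adjusted p = 0.00457), and the SBP call held in all 18 alternatives. In fibroblasts the other source showed no call. Ccl2 there was at 120, 30.9 and 88.2 CPM in sham mice and 29.2, 102 and 50.9 CPM in I/R mice, and the log2 difference was -0.36 with a 95% interval of -1.54 to 0.82. Ccl7 in fibroblasts had a log2 difference of -0.52 with an interval of -1.63 to 0.60, and both intervals were wide. In Gpnmb macrophages, which were rare in sham hearts, Ccl2 was at 320 ± 213 CPM (SD, n = 3) in I/R and 397 ± 210 CPM (SD, n = 3) in SBP hearts. Gm17268 on the opposite strand overlaps Ccl2, and the counting was not stated to use strand.

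Ccl12, a mouse monocyte chemoattractant of the same gene cluster, moved the other way. In myeloid nuclei it was at 193, 97.7 and 141 CPM in sham mice, 52.6, 37.5 and 58.8 CPM in I/R mice and 39.3, 21.7 and 74.8 CPM in SBP mice. The lowest sham heart was above the highest injured heart. Ccl12 fell by 1.49 ± 0.41 on the log2 scale in I/R (SE, n = 3 against 3, limma adjusted p = 0.0316) and by 1.77 ± 0.41 in SBP hearts (limma adjusted p = 0.02). The SBP call was lost without sham mouse 1 (adjusted p = 0.0753), sham mouse 3 (adjusted p = 0.062), SBP mouse 1 (adjusted p = 0.0581) or SBP mouse 2 (adjusted p = 0.0526). Hpgd-led myeloid nuclei, most of the sham myeloid nuclei, carried Ccl12 at 129 CPM over all libraries. The 8 cardiomyocyte markers summed to 6283 to 7686 CPM in sham and 2035 to 2946 CPM in injured myeloid nuclei, and the part of these shifts in the fall of Ccl12 was not tested. Within Lyve1 macrophages, Ccl12 was at 252 ± 132 CPM (SD, n = 3) in sham, 72.5 ± 21.7 CPM in I/R and 48.1 ± 32.4 CPM in SBP hearts. These nuclei were few in sham hearts, with 86, 11 and 81 in sham mice 1 to 3, so that the value of 352 CPM in sham mouse 2 came from 8 UMIs. With macrophage populations only, the log2 difference of I/R from sham was -1.24 ± 0.40 (SE, limma adjusted p = 0.064) and that of SBP -1.67 ± 0.40 (SE, limma adjusted p = 0.0241).

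The receptor Ccr2, which marks recruited monocytes, was not called. Its myeloid level was 95.9, 124 and 98.3 CPM in sham mice, 545, 93.0 and 142 CPM in I/R mice and 157, 338 and 272 CPM in SBP mice. I/R mouse 1 was highest, I/R mouse 2 lay below all sham mice, and each SBP mouse lay above each sham mouse. The log2 difference from sham was 0.87 ± 0.58 in I/R and 1.2 ± 0.58 in SBP hearts (SE, n = 3 against 3, limma adjusted p = 0.344 and 0.216). Ccl8, another ligand of this cluster of genes, was at 17.6, 5.95 and 17.8 CPM in sham, 43.1, 8.49 and 18.8 CPM in I/R and 5.61, 13.3 and 19.8 CPM in SBP myeloid nuclei, and the groups overlapped.

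**Figure D3:**
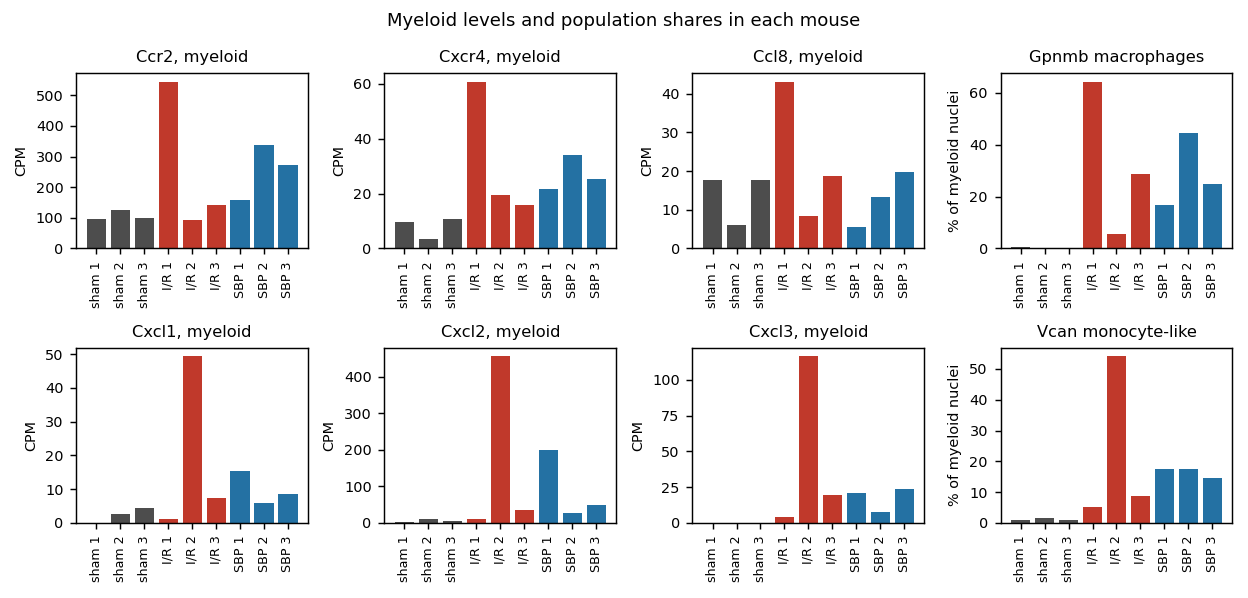
CPM of 6 members in the myeloid nuclei of each mouse, and the share of myeloid nuclei in 2 populations. I/R mouse 1 has the highest bars for Ccr2, Cxcr4, Ccl8 and Gpnmb macrophages, and I/R mouse 2 for Cxcl1, Cxcl2, Cxcl3 and Vcan monocyte-like nuclei.

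The 3 I/R mice differed in the members they held most of. Gpnmb macrophages were 64.4% of myeloid nuclei in I/R mouse 1, 5.61% in mouse 2 and 28.8% in mouse 3, and 16.8, 44.4 and 24.8% in SBP mice 1 to 3. Vcan monocyte-like nuclei were 5.24, 54.3 and 8.87% in I/R mice and 17.4, 17.5 and 14.7% in SBP mice. I/R mouse 1 had the highest Ccr2, Cxcr4 and Ccl8, and I/R mouse 2 the highest Cxcl1, Cxcl2 and Cxcl3 of all myeloid sums. The part of these populations in the spread of the members was not tested.

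The ligands Ccl6 and Ccl9 and their receptor Ccr1 rose in all 5 sums. Ccl6 and Ccl9 are rodent CC ligands that draw monocytes and neutrophils through Ccr1, and both lie on the minus strand of chromosome 11 (GRCm38, Ccl9 at chr11:83572919-83578636 and Ccl6 at chr11:83587882-83593087). In whole hearts Ccl6 was at 16.3, 7.97 and 14.8 CPM in sham mice, 63.3, 84.9 and 95.3 CPM in I/R mice and 52.5, 62.4 and 49.9 CPM in SBP mice. The 3 groups did not overlap with each other, I/R being highest, but the difference of SBP from I/R was not called. In fibroblasts, where its adjusted p was lowest, Ccl6 was at 6.75, 2.88 and 4.90 CPM in sham, 24.8, 41.9 and 41.4 CPM in I/R and 23.9, 29.3 and 21.1 CPM in SBP mice, a log2 fold change of 2.68 ± 0.29 for I/R over sham (SE, n = 3 against 3, limma adjusted p = 0.000203). All injured values there exceeded all sham values.

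Ccl9 in fibroblasts was at 2.25, 2.16 and 2.10 CPM in sham mice, 24.8, 24.9 and 22.2 CPM in I/R mice and 15.5, 20.9 and 12.6 CPM in SBP mice. These groups were fully apart, and the difference of SBP from I/R was not called. The sham values lay below the cut of 2.78 CPM for this sum, so that Ccl9 entered it through injured hearts only. Its log2 fold change was 2.98 ± 0.23 in I/R (SE, n = 3 against 3, limma adjusted p = 3.49e-05) and 2.43 ± 0.23 in SBP over sham (limma adjusted p = 0.00027). Ccr1 in whole hearts was at 6.38, 4.02 and 6.51 CPM in sham mice, 27.3, 32.2 and 21.2 CPM in I/R mice and 13.5, 21.3 and 16.3 CPM in SBP mice. Injured hearts were above sham hearts, with a log2 fold change of 2.08 ± 0.23 in I/R (SE, n = 3 against 3, limma adjusted p = 0.0017). The calls of Ccl6 and Ccl9 in fibroblasts and of Ccr1 in whole hearts held in every alternative tried.

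In myeloid nuclei, their main source, the fold changes had smaller values, and the difference between cell types was not tested. Ccl6 was at 168, 57.8 and 128 CPM in sham, 191, 307 and 508 CPM in I/R and 370, 222 and 341 CPM in SBP myeloid nuclei. The log2 fold change of I/R over sham was 1.52 ± 0.44 for Ccl6, 1.47 ± 0.38 for Ccl9 and 0.90 ± 0.23 for Ccr1 (SE, n = 3 against 3, limma adjusted p = 0.0441, 0.0264 and 0.0178). With macrophage populations only, a choice made after seeing the data, the values were 1.53 ± 0.50, 1.44 ± 0.43 and 0.67 ± 0.22 (SE, limma adjusted p = 0.0743, 0.0525 and 0.0546), and the 4 members called were Ccl2, Ccl7, Cxcl3 and Cxcl5. The share of all genes called in that fit is not given, so that the lower count is not read as particular to the members.

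Outside myeloid nuclei, Ccl6, Ccl9 and Ccr1 stood at low and nearly equal numbers of UMIs per nucleus. Ccl6 had 91.3 UMIs per 1000 nuclei in endothelial nuclei, 93.2 in fibroblasts and 91.5 in cardiomyocytes of I/R hearts, against 9.37, 8.30 and 12.5 in sham and 628 in I/R myeloid nuclei. Ccl9 and Ccr1 also had similar numbers over these 3 types. Cxcl5 in turn had 229 UMIs per 1000 fibroblast nuclei in I/R hearts and 23.6 to 30.2 in the other 3 types. The 8 myeloid markers summed to 302 to 435 CPM in sham and 612 to 736 CPM in I/R endothelial nuclei, 217 to 254 and 320 to 431 CPM in fibroblasts, and 85.2 to 115 and 143 to 200 CPM in cardiomyocytes, with none of the markers at 0. In I/R against sham, 2 of 8 of these markers were called higher in endothelial nuclei and in fibroblasts and 1 of 8 in cardiomyocytes. The part of RNA from other cells in the calls outside a gene's main source was not tested.

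**Figure D4:**
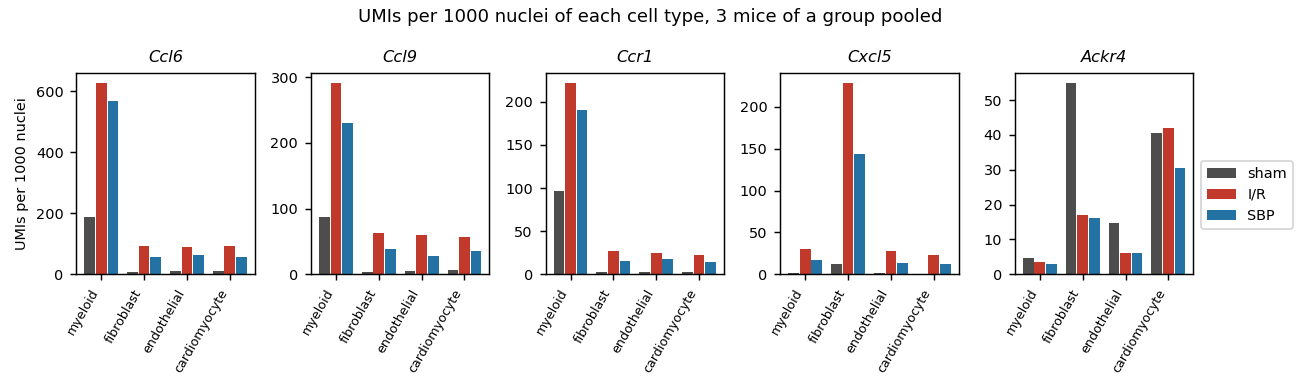
UMIs per 1000 nuclei of Ccl6, Ccl9, Ccr1, Cxcl5 and Ackr4 in 4 cell types, with 1 bar per group and the 3 mice of a group pooled. Ccl6, Ccl9 and Ccr1 show low bars of similar height in the 3 types other than myeloid nuclei, Cxcl5 stands out in fibroblasts, and Ackr4 is lower in fibroblasts of I/R and SBP than of sham hearts.

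Several other members were called outside their main source in I/R against sham. Cxcl5 was called higher in myeloid, endothelial and cardiomyocyte nuclei too, with log2 fold changes of 3.42 ± 0.60, 3.30 ± 0.41 and 1.97 ± 0.39 (SE, n = 3 against 3). Ccl7 was higher in endothelial nuclei by 2.49 ± 0.40 and Ccl2 in cardiomyocytes by 1.82 ± 0.33 on the log2 scale. Cxcr2 was called higher in endothelial nuclei (2.16 ± 0.44) and fibroblasts (1.36 ± 0.39), and Cxcr4 in fibroblasts (1.59 ± 0.46, all log2 ± SE). With replicate number in the fit, the fibroblast calls of Cxcr2 and Cxcr4 were lost (limma adjusted p = 0.0659 and 0.0639). The cardiomyocyte call of Ccl2 was lost too (limma adjusted p = 0.0554). The 6 neutrophil markers summed to 12.8 to 32.3 CPM in sham and 74.8 to 395.5 CPM in I/R endothelial nuclei, and to 9.34 to 41.8 and 63.2 to 269.6 CPM in fibroblasts, with 2 of 4 tested markers higher in each and none at 0. A cluster of 55 fibroblast nuclei and one of 85 nuclei found in the endothelial clustering were led by Csf3r, a neutrophil gene. That clustering also took in 60 nuclei left without a type and led by the same gene. Those 60 did not enter the endothelial sum, and how many of the 85 they make up is not given. The part of neutrophil RNA in these Cxcr2 calls was not tested.

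**Figure D5:**
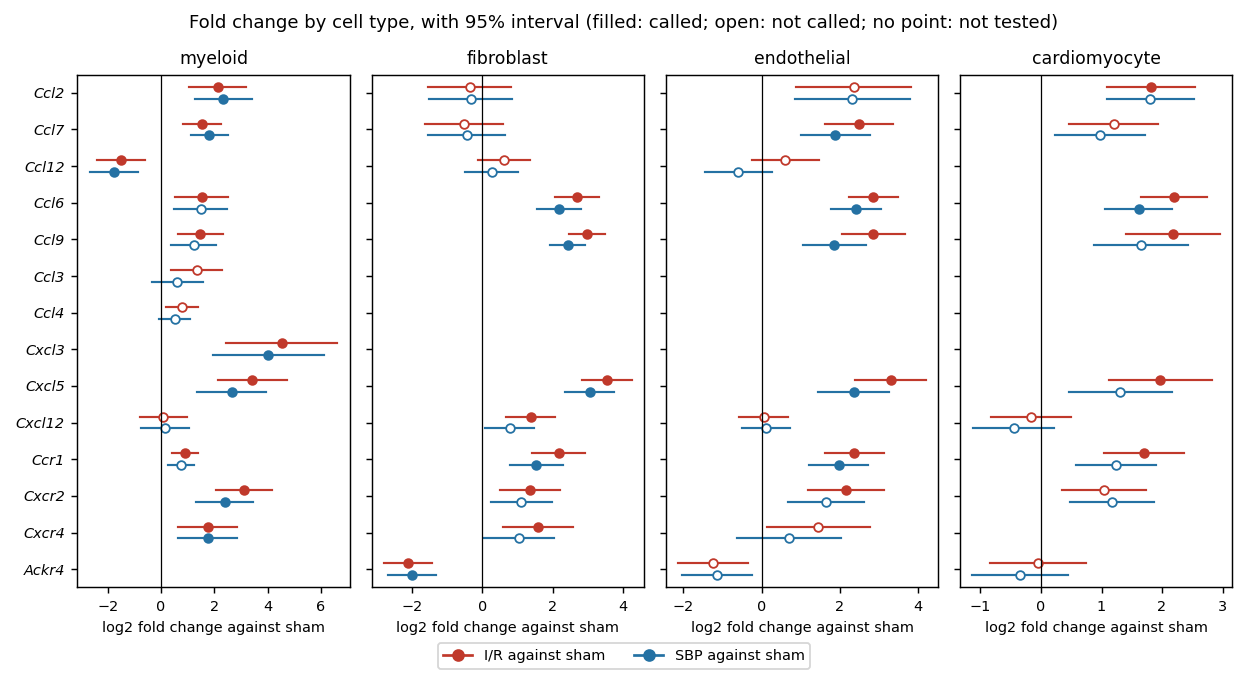
Log2 fold change against sham of 14 called members in 4 cell types, for I/R and SBP hearts, with 95% intervals from limma and filled points for calls. In fibroblasts Cxcl5, Ccl6 and Ccl9 lie to the right and Ackr4 to the left for both groups, while Ccl2 and Ccl7 are to the right in myeloid nuclei and have intervals across 0 in fibroblasts.

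Ccl3 and Ccl4, inflammatory ligands of macrophages that lie side by side on chromosome 11, were called in whole hearts at low levels. Of the 4 cell types they passed the filter on low genes in myeloid nuclei alone, and they were not called there. Ccl3 in whole hearts was at 0.618, 1.08 and 0.251 CPM in sham, 2.83, 4.61 and 1.70 CPM in I/R and 1.13, 1.48 and 1.09 CPM in SBP mice. Ccl4 was at 1.24, 1.36 and 1.63 CPM in sham, 6.69, 10.0 and 3.51 CPM in I/R and 3.61, 4.95 and 2.84 CPM in SBP mice. For both genes each I/R heart exceeded each sham heart, and the log2 fold changes were 1.26 ± 0.28 and 1.60 ± 0.31 (SE, n = 3 against 3, limma adjusted p = 0.0228 and 0.0141). The Ccl3 call was lost without sham mouse 1 (adjusted p = 0.0667), sham mouse 3 (adjusted p = 0.0854) or I/R mouse 2 (adjusted p = 0.0671), and the Ccl4 call without sham mouse 1 (adjusted p = 0.0502) or sham mouse 3 (adjusted p = 0.0528). Ccl5, a T cell ligand of Ccr1, was at 1.85, 2.30 and 4.82 CPM in sham, 5.04, 4.95 and 1.93 CPM in I/R and 0.828, 2.62 and 1.02 CPM in SBP hearts, with overlap.

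Cxcl12, the ligand of Cxcr4 and of the scavenger Ackr3, rose in fibroblasts after I/R. There it was at 8.10, 19.1 and 17.1 CPM in sham mice, 58.0, 32.3 and 28.4 CPM in I/R mice and 23.3, 26.0 and 24.4 CPM in SBP mice. Sham, SBP and I/R mice formed 3 groups without overlap, in that order, but the difference of SBP from I/R was not called. The log2 fold change of I/R over sham was 1.38 ± 0.32 (SE, n = 3 against 3, limma adjusted p = 0.0176) and that of SBP over sham 0.78 ± 0.32 (limma adjusted p = 0.2). In endothelial nuclei, its main source, Cxcl12 was at 41.2, 88.2 and 85.8 CPM in sham and 81.4, 60.4 and 71.1 CPM in I/R mice, a log2 difference of 0.05 with an interval of -0.57 to 0.67. Capillary and arterial nuclei carried it at 134 and 127 CPM.

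Cxcr4 in myeloid nuclei was at 9.59, 3.40 and 10.7 CPM in sham mice, 60.8, 19.4 and 15.8 CPM in I/R mice and 21.6, 34.1 and 25.4 CPM in SBP mice. Injured hearts were above sham hearts. Cxcr4 rose by 1.76 ± 0.50 on the log2 scale in I/R and 1.76 ± 0.50 in SBP over sham (SE, n = 3 against 3, limma adjusted p = 0.0346 and 0.0439). The SBP call was lost with replicate number in the fit (limma adjusted p = 0.0591). The I/R call held in 9 of 18 alternatives and was lost without sham mouse 1 or 2 (adjusted p = 0.0659 and 0.108), I/R mouse 1 or 2 (adjusted p = 0.0578 and 0.0508) or SBP mouse 1 or 3 (adjusted p = 0.0501 and 0.0545). Ackr3, most abundant in fibroblasts with 50.4 to 145 CPM over the libraries, was called in no comparison of the 5 sums. With macrophage populations only, it was lower in SBP than in sham hearts (log2 difference -1.18 ± 0.34, SE, limma adjusted p = 0.0346).

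Ackr4, which scavenges Ccl19, Ccl21 and Ccl25, was the only member that fell in whole hearts and in fibroblasts. In fibroblasts it was at 22.5, 35.2 and 33.9 CPM in sham mice, 8.73, 4.25 and 6.15 CPM in I/R mice and 4.44, 6.97 and 9.51 CPM in SBP mice. All sham mice lay above all injured mice, and the injured groups overlapped. It fell by 2.12 ± 0.31 on the log2 scale in I/R (SE, n = 3 against 3, limma adjusted p = 0.00132) and by 2.01 ± 0.31 in SBP hearts (limma adjusted p = 0.00294). The 8 cardiomyocyte markers also fell in these fibroblast sums, from 5140 to 6285 CPM in sham to 1679 to 2591 CPM in I/R mice, with 8 of 8 called lower, and their part in the fall of Ackr4 was not tested. Tnc injury-activated fibroblasts, which were scarce in sham hearts, carried Ackr4 at 1.91 CPM. In the other fibroblasts it had a mean of 30.0 ± 6.92 CPM (SD, n = 3) in sham and 9.95 ± 5.69 CPM (SD, n = 3) in I/R hearts. In cardiomyocytes, which held 40.6% of its UMIs, Ackr4 was at 3.22, 9.68 and 8.79 CPM in sham and 5.10, 5.54 and 9.12 CPM in I/R mice, a log2 difference of -0.04 with an interval of -0.84 to 0.75. Ackr4 (GRCm38, chr9:104084157-104126933, minus strand) overlaps Acad11 on the opposite strand. Of its ligands, Ccl19 and Ccl21a were not called, and Ackr2, another scavenger with 83.9 CPM in lymphatic nuclei, was not called either.

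The study asked whether SBP given before ischemia changed the injured heart, and SBP was compared with I/R hearts for this. No member was called by limma in whole hearts, myeloid, endothelial, fibroblast or cardiomyocyte nuclei, and of all genes tested 0.0% were called in each. At an unadjusted p under 0.05 there were 6 members in whole hearts, 0 in myeloid, 4 in endothelial, 2 in fibroblast and 1 in cardiomyocyte sums, of 43, 23, 23, 28 and 20 tested. Of all genes tested 4.45, 3.89, 5.12, 3.49 and 2.07% were under that value in the same sums. The count stayed at 0 in every alternative tried. The 95% interval of a log2 difference reached a median over members of 0.59 to either side in whole hearts and 0.96 in myeloid nuclei, and differences within such intervals were not detectable with 3 mice a group. These intervals are not adjusted for the number of genes tested, and some larger differences were not called either. The median log2 difference of members was -0.21 in whole hearts, where that of all genes was -0.00. In myeloid nuclei it was -0.11, where that of all genes was -0.03.

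The 6 members below an unadjusted p of 0.05 in whole hearts, named because of that value, were Ccl9, Ccr1, Ccl3, Ccl12 and Ccl5 with lower and Ccl21a with higher levels in SBP hearts. Ccl9 was at 34.6, 51.2 and 40.1 CPM in I/R mice and 27.0, 28.9 and 19.4 CPM in SBP mice, without overlap. Its log2 difference was -0.72 with a 95% interval of -1.24 to -0.20 (limma unadjusted p = 0.0116, adjusted p = 0.999). Ccr1 had a log2 difference of -0.63 with an interval of -1.15 to -0.12, and I/R and SBP mice overlapped by 1 pair of values, 21.2 in I/R mouse 3 and 21.3 in SBP mouse 2. Ccl3 differed by -0.80 (interval -1.42 to -0.17) and Ccl12 by -0.77 (interval -1.34 to -0.20), both without overlap, but neither passed the adjusted threshold (limma adjusted p = 0.999 each). In myeloid nuclei, where myeloid numbers do not enter, the SBP-to-I/R log2 difference was -0.25 ± 0.38 for Ccl9 and -0.15 ± 0.23 for Ccr1 (SE). Myeloid nuclei were 18.3 to 36.0% of nuclei in I/R and 12.9 to 28.3% in SBP hearts, and their part in the whole-heart values was not tested.

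Endothelial Ccl27a, a skin-homing ligand of Ccr10, had the lowest unadjusted p among the members in SBP against I/R. It was at 5.02, 6.07 and 9.12 CPM in sham mice, 1.37, 3.5 and 3.27 CPM in I/R mice and 7.58, 7.70 and 10.2 CPM in SBP mice. I/R mice were below all other mice, and SBP mice overlapped with sham mice. The log2 difference of SBP from I/R was 1.4 with an interval of 0.66 to 2.14 (limma unadjusted p = 0.0014, adjusted p = 0.959). Il11ra1 overlaps Ccl27a on the opposite strand.

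SBP hearts were also compared with sham hearts, which are the same sham libraries as in the comparison of I/R, so that the values of both are given side by side and not as separate support. In whole hearts 6 of 43 members were called, 5 higher and 1 lower, against 3.24% of all genes. Myeloid nuclei had 7 of 23 called, 6 higher and 1 lower, against 12.7% of all genes. In fibroblasts 5 of 28 were called, 4 higher and 1 lower, against 5.93%. Endothelial nuclei had 5 of 23 called and cardiomyocytes 1 of 20, all higher, against 2.07 and 0.132% of all genes. Whole-heart log2 fold changes over sham were 3.39 in I/R and 2.94 in SBP for Cxcl5, 2.59 and 2.04 for Ccl6, 2.58 and 1.86 for Ccl9, 2.08 and 1.44 for Ccr1, and 1.90 and 1.48 for Cxcr2. The whole-heart count was 3 without sham mouse 3 or SBP mouse 3. It was higher with only the 6 samples compared in the fit, and the endothelial count was lower with replicate number in the fit, as given at the end. The myeloid count was 4 without sham mouse 3, SBP mouse 1 or SBP mouse 3, 3 without SBP mouse 2 and 11 without I/R mouse 1. The endothelial count was 2 without sham mouse 2, sham mouse 3 or SBP mouse 3 and 1 without SBP mouse 1 or 2. The cardiomyocyte count was 0 without any 1 of the sham or SBP mice, 3 without I/R mouse 1 and 2 without I/R mouse 2.

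Of the 24 members with at least 100 UMIs that were called in none of the 5 sums, the homing ligands had different main sources. Ccl21a was highest in endothelial nuclei, with 45.2 to 102 CPM over the libraries, and near-identical copies of the gene make its count uncertain. Ccl19, a ligand of Ccr7, was highest in fibroblasts (2.15 to 15.1 CPM), as were Cxcl14, a ligand of epithelia and stroma (18.0 to 56.8 CPM), and Ccl11, the eosinophil ligand of Ccr3 (0.251 to 6.63 CPM). Ccl25, the thymic ligand of Ccr9, had its highest pooled level in B cells, at 91.5 CPM from 33 of its 7088 UMIs, and Elavl1 overlaps it on the opposite strand. Cardiomyocytes held 36.3% of the Ccl25 UMIs. Ccl27a was highest in cardiomyocytes (5.26 to 9.13 CPM).

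Both genes of the fractalkine pair had their highest pooled level in endothelial nuclei. Cx3cl1, the membrane-bound ligand fractalkine, was highest in endothelial nuclei at 2.53 to 9.71 CPM. Its receptor Cx3cr1 was at 36.1 CPM in endothelial and 32.7 CPM in myeloid nuclei, which held 35.2 and 28.3% of its UMIs. By population it was at 71.8 CPM in Hpgd-led myeloid nuclei and 55.5 CPM in endocardial nuclei. In myeloid nuclei Cx3cr1 was at 36.8, 72.2 and 67.0 CPM in sham, 49.5, 6.37 and 10.7 CPM in I/R and 11.2, 23.8 and 40.2 CPM in SBP mice, with overlap (limma adjusted p = 0.112 for I/R against sham). In endothelial nuclei it was at 31.2, 16.6 and 12.4 CPM in sham and 37.5, 73.1 and 49.4 CPM in I/R mice, without overlap, a log2 difference of 1.41 ± 0.40 (SE, n = 3 against 3, limma adjusted p = 0.0985). Several genes overlap Cx3cr1, among them Gorasp1, Csrnp1 and Xirp1 on its own strand, so that its level outside myeloid nuclei is uncertain.

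The interferon-induced ligands were scarce. Cxcl10 was highest in myeloid nuclei (0.791 to 8.51 CPM) and Cxcl9 in endothelial nuclei (0.927 to 7.68 CPM), and both bind Cxcr3, which had 58 UMIs in all. Cxcl16, the membrane-bound ligand of Cxcr6, was highest in myeloid nuclei (43.1 to 114 CPM), while Cxcr6 was highest in T cells (20.1 to 232 CPM). Ccl5 (82.2 to 282 CPM), Ccr2 (156 to 552 CPM) and Ccr9 (0 to 41.1 CPM) were also highest in T cells. Cxcr5, the follicle-homing receptor, was at 183 CPM and Ccr7, the lymph node receptor, at 69.3 CPM in B cells pooled over the libraries, from 66 and 25 UMIs in 336 nuclei, and each was 0 in at least 1 library. Ccl8 (5.54 to 42.9 CPM), Cxcl2 (1.64 to 423 CPM) and Ccl24, an eosinophil ligand (1.23 to 11.5 CPM), were highest in myeloid nuclei, Cxcl1 (25.1 to 147 CPM) and Ackr3 in fibroblasts, and Ackr2 (3.70 to 16.6 CPM) in endothelial nuclei. Cxcl17 had its highest pooled level, 2.62 CPM, in Schwann cells from 1 of its 129 UMIs.

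Other genes of the pathway moved in part. Of 37 genes of chemokine receptor signalling (G proteins, kinases, arrestins and their regulators), 36 were tested in myeloid nuclei in I/R against sham, and 7 were higher and 3 lower, where 17.6% of all genes were called. Their median log2 fold change was 0.12, where that of all genes was 0.09. Rgs1, a brake on G protein signalling, rose by 3.87 ± 0.52, the kinase Fgr by 2.54 ± 0.44 and Pik3r5, a regulatory subunit of PI3K gamma, by 1.69 ± 0.28 on the log2 scale (SE, limma adjusted p = 0.00123, 0.00524 and 0.00226). Rgs1 entered the myeloid sum through injured hearts only, its sham values of 1.60, 4.25 and 2.14 CPM being below the cut of 7.06 CPM. The counts of this list include such genes. Rgs10 and Rgs3, further regulators of G proteins, and Pik3cg, the catalytic subunit, fell by 1.11 ± 0.32, 1.05 ± 0.25 and 0.71 ± 0.20 (SE). In whole hearts 8 of 37 were higher and 0 lower, in fibroblasts 4 higher and 2 lower of 32, in endothelial nuclei 3 of 32 higher and in cardiomyocytes 1 of 31 higher, against 11.3, 11.3, 3.12 and 0.785% of all genes. In SBP against sham, 6 of 36 were higher and 1 lower in myeloid nuclei, with Rgs1 higher by 4.79 ± 0.52 (SE, limma adjusted p = 0.000565), and 2 were higher in whole hearts, 1 in fibroblasts, 2 in endothelial nuclei and 0 in cardiomyocytes. The shares of all genes called there were 12.7, 3.24, 5.93, 2.07 and 0.132%.

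The NF-kB factors and feedback genes act upstream of many chemokines, and their share of calls in I/R against sham was near that of all genes. Higher were 2 of 13 in myeloid nuclei, 1 of 12 in fibroblasts and 1 of 13 in whole hearts, where 17.6, 11.3 and 11.3% of all genes were called, and 0 in the other sums. In myeloid nuclei the inhibitor Nfkbia rose by 2.10 ± 0.56 and the cofactor Bcl3 by 1.25 ± 0.34 on the log2 scale in I/R (SE, limma adjusted p = 0.0334 and 0.028). Nfkbiz rose in I/R fibroblasts by 0.96 ± 0.28 and fell by 1.12 ± 0.30 in SBP myeloid nuclei (SE, against sham, limma adjusted p = 0.0467 and 0.0339), and Bcl3 was higher in I/R whole hearts. Among 6 related genes outside the naming rule, Pf4, a platelet chemokine also made by macrophages, rose in all 5 sums in I/R, by 2.46 ± 0.23 in whole hearts (SE, limma adjusted p = 0.000754). Cd74, a receptor of Mif, fell by 2.69 ± 0.41 in I/R myeloid nuclei (SE, limma adjusted p = 0.00249), the platelet ligand Ppbp rose there by 2.79 ± 0.77, and Mif rose in fibroblasts by 1.18 ± 0.18 (SE). Ppbp entered the myeloid sum through injured hearts only, being at 0, 0 and 0.713 CPM in sham mice. In SBP against I/R limma called 0 genes of these 3 lists. Under an unadjusted p of 0.05 were 1, 0 and 1 of them in whole hearts, 1, 1 and 0 in myeloid, 3, 3 and 1 in endothelial, 2, 1 and 1 in fibroblast and 3, 1 and 2 in cardiomyocyte nuclei. Tested were 37, 13 and 6 in whole hearts, 36, 13 and 5 in myeloid and 32, 12 and 5 in endothelial nuclei. Fibroblasts had 32, 12 and 4 tested and cardiomyocytes 31, 10 and 5. Of all genes tested, 4.45, 3.89, 5.12, 3.49 and 2.07% were under that value in these sums. The 3 NF-kB genes in endothelial nuclei were among 12 tested, with a median log2 difference of -0.44 where that of all genes was 0.01.

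The remaining 17 members had fewer than 100 UMIs each over the 9 libraries and were called in none of the 5 sums. They were Cxcl13 with 94 UMIs, Ackr1 with 87, Xcr1 with 70, Ccr6 with 65, Cxcr3 with 58, Ccr4 with 50, Ccl28 with 42, Ccr3 with 28, Xcl1 with 21, Ccl22 with 19, Ccr10 with 18, Ccl17 with 17, Ccl26 with 15, Ccl1 with 9, Cxcr1 with 6, Ccr8 with 3 and Ccl20 with 2. Lyve1 macrophages held 66 of the 94 UMIs of Cxcl13, the B cell ligand of Cxcr5. The highest library held 87 of these 94 UMIs, so that this source rests mostly on that library. In all, 13 members did not pass the filter on low genes in any sum, and differences in them were not detectable at this depth.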

How the data were processed

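Nuclei of frozen hearts were profiled with 10x Genomics chemistry in 9 samples, 3 in each of 3 groups. Per the labels and the study's methods, the authors trimmed reads with fastp, aligned them to the mouse genome mm10 (GRCm38) with Cell Ranger, down-sampled the libraries to similar mapped reads per cell, filtered nuclei on genes and mitochondrial reads and removed mitochondrial genes. The submitters' processing notes name Cell Ranger 4.0, STAR and Seurat 3.2.0, and the study's methods give other versions of Cell Ranger and Seurat. The deposited values are natural log values per nucleus, ln(1 + 10000 × UMIs / total), normalised by the authors with Seurat. The files held 49171 nuclei, fewer than the count given with the study. Down-sampling evened mapped reads per cell but not the UMIs of a library, and nuclear RNA underrepresents cytoplasmic transcripts. Whether counting used strand is not given in the sources used here.

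UMIs were recovered by inverting the transform, and at least 99.9994% of values in each sample were whole within 0.1. They were checked against totals, clustered without the member genes (scanpy 1.11.5, leidenalg 0.10.2, 2000 variable genes, 30 components, 20 neighbours, resolution 0.3, and 0.4 within myeloid, endothelial and fibroblast nuclei) and named from marker lists. No nuclei were removed as doublets, because Scrublet marked 126 nuclei (0.256%) and was taken not to have worked; leaving out the 2168 highest scores was an alternative. By marker scores 86.5% of nuclei had the same type.

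UMIs were summed per sample and type (at least 20 nuclei), scaled by the trimmed mean of M values and tested as log2(CPM + 1) with limma 3.58.1 (trend, robust; R 4.3.3) in 1 fit of the 9 samples. P-values were adjusted by Benjamini-Hochberg across every gene tested for a sum and contrast. The log2 fold change is on the log2(CPM + 1) scale and understates changes of low genes. Genes entered with 15 UMIs in total and, in 3 samples, a CPM worth 10 UMIs of the median library. Per-sample columns of other series numbered 0. The code was tested on simulated data. The thresholds were those of the study. Per the study's text each sample came from a different animal, so p-values measure the spread between mice, and tissue was taken below the ligature. An exact permutation test of 3 against 3 cannot go below 0.1. Intervals and floors cover counting error or limma's error only.

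The members, lists and tests were chosen with earlier results of these data known. Called members were named with every sample's value in the sum of lowest adjusted p, with their receptors and ligands, uncalled members with at least 100 UMIs by their highest cell type, and the rest by UMIs. The values of 1 called member are not reported here, though counts over members include it. Promoter windows (250 bases before the start) came from RefSeq on GRCm38.p6. The sources of coordinates were GRCm38 annotations.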

Additional observations from a re-analysis of the deposited data

Results flagged for a closer look

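In I/R against sham hearts, Ccl12 had opposite signs in 2 cell types, with every I/R mouse on one side of every sham mouse in each. This case was picked by a search of every tested member and comparison for such a pattern. In endothelial nuclei Ccl12 was at 3.34, 2.88 and 3.73 CPM in sham and 5.49, 6.12 and 5.08 CPM in I/R mice, a log2 difference of 0.61 (limma adjusted p = 0.468). The sham values there lay below the cut of 4.14 CPM, so that Ccl12 entered this sum through injured hearts only. In myeloid nuclei the log2 difference was -1.49 (limma adjusted p = 0.0316). The difference between the cell types was not tested, and myeloid markers were higher in I/R than in sham endothelial nuclei, whose part in the endothelial value was not tested.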

How the results depend on the processing

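Alternatives were total UMIs in place of scaling factors, pseudocounts of 0.5 and 5 CPM, no filter on low genes, a replicate block, only the 6 samples compared, types from marker scores, likely doublets left out, each library left out, and, chosen after seeing the data, macrophage populations only. In I/R against sham, the count of called members was 4 in macrophages, and 3 in cardiomyocytes with a pseudocount of 5 CPM or only the 6 samples. In SBP against sham it was 12 in whole hearts with only the 6 samples, and in cardiomyocytes 0 with a pseudocount of 5 CPM and 3 with only the 6 samples. With each library left out, counts for I/R against sham ran from 5 to 14 in whole hearts, 4 to 10 in myeloid nuclei, 5 to 7 in endothelial nuclei, 6 to 10 in fibroblasts and 1 to 6 in cardiomyocytes. For SBP against sham they ran from 3 to 9, 3 to 11, 1 to 6, 4 to 6 and 0 to 3, and for SBP against I/R they stayed at 0. The cause of these changes was not tested, except that fewer samples enter where libraries are left out. The shares of all genes called in the alternatives are not given, so that a changed count is not read as particular to the members.

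With the replicate block, 3 endothelial and 0 cardiomyocyte members were called in SBP against sham, where Ccl7 and Ccl9 (adjusted p = 0.082 and 0.0655) and Ccl6 (0.0857) no longer passed. It also ended the calls of whole-heart Cxcl3, cardiomyocyte Ccl2 and fibroblast Cxcr2 and Cxcr4 in I/R and of myeloid Cxcr4 in SBP against sham, with limma adjusted p from 0.0554 to 0.0659. Correlations of same-numbered deviations ran from -0.426 to 0.335, and those of replicate 3 were all positive, from 0.0256 to 0.335. Such correlations cannot exclude a shared batch, and the labels do not say whether the numbers pair the samples.

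Signs changed only for differences that were not called. In SBP against I/R myeloid nuclei, Cxcr4 was 0.0082 with total UMIs and 0.004 with only the 6 samples, and Cxcl3 was 0.84 in macrophages. With each library left out, log2 differences of SBP from I/R ran from -0.37 to 0.58 for Cxcr4, -1.57 to 0.68 for Cxcl3, -0.22 to 0.58 for Ccl2 and -0.73 to 0.16 for Ccl12 in myeloid nuclei, and -0.12 to 0.35 for Ackr4 in fibroblasts. Those of I/R from sham ran from -0.0037 to 0.52 for endothelial Ackr3, -0.21 to 0.68 for fibroblast Ccl5 and -0.014 to 1.22 for fibroblast Cxcl1. Low UMI counts and 3 mice a group limit all of these values.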
